A study of Mus musculus with 16 samples.

Results

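The question addressed here is whether adipose stem cells were followed by another change in the inflamed liver when they were given early than when they were given late. It was answered with 12 livers of the 16 samples, in 4 groups of 3 female C57Bl/6 mice. Every mouse had been injected with 300 µg of concanavalin A. Mice 8, 9 and 10 received 100000 stem cells through the tail vein at once and their livers were taken at 2 h, beside mice 11, 12 and 13 with concanavalin A alone. Mice 1, 2 and 3 received the same number of cells 3 h after concanavalin A and their livers were taken at 5 h, beside mice 4, 5 and 6 with concanavalin A alone. The cells came from inguinal fat of the same strain and were expanded in culture. Both treated groups were therefore examined 2 h after the cells, but the 2 schedules differ in the hour of the cells and in the stage of the hepatitis, which cannot be told apart. No group without concanavalin A and none with other cells or vehicle was analysed here. The measurement is the difference of effects: the log2 effect of the cells at 5 h (treated minus alone) minus the log2 effect at 2 h. A positive difference means that the treated livers stood higher, relative to their own controls, in the late schedule than in the early one.

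Concanavalin A is a plant lectin that cross-links surface sugars and activates T cells, and in the mouse liver it sets off a hepatitis driven by interferon-gamma and tumour necrosis factor. Cytokines then act on hepatocytes, endothelium and Kupffer cells, the resident macrophages. Mesenchymal stem cells of fat are known to release factors that restrain T cells and macrophages, and many of them lodge in the lung after injection into a vein.

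Each liver was hybridised to 1 array, labelled with Cy3 alone. Levels are given as log2 of the processed signal minus the 75th percentile of the same array, so a level of 0 lies at that percentile and levels of different genes are not comparable. Per array, 52.1% to 62.5% of spots were well above background, and the number of arrays limits the precision. The tissue label was borne out by hepatocyte genes: 21 of 21 measured were well above background on all 12 livers, and the albumin gene Alb was never below 9.86. Each of the 3 slides held 1 liver of every group, so the difference could also be formed within a slide. On each slide, however, the 2 h livers without cells lay at position 1 and those with cells at position 2, so position and treatment cannot be told apart at 2 h. At 5 h the livers without cells lay at position 3 and those with cells at position 4 on slides 1 and 2. On slide 3 these positions were swapped, so position and treatment are confounded in part at 5 h. Mice 13 (2 h alone) and 10 (2 h with cells) stood apart from the other 10 livers. Their scores for the interferon-gamma response, the median of its genes relative to their 12-liver means, were -3.14 and -3.06, and the other livers ran from -1.21 to 1.46.

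The early and the late effect of the cells differed past the threshold in 2 of 14560 genes, Gimap5 and Tnfrsf23, and both differences were positive (0.0137% of the genes, limma with Benjamini-Hochberg adjustment, threshold 0.05). No gene had a negative difference past it. With slide as a block, 0 genes passed in limma and 776 (5.33%) had an unadjusted p under 0.05, and 0 also passed with the array median as scale, with normexp background correction or without the filter on dim probes. In the fit without a block, at an unadjusted p under 0.05, 329 genes were positive and 351 negative, which is 4.67% of all genes. At any size, the difference was above 0 in 7735 genes (53.1%) and below 0 in 6825, the background for the list counts below. The standard error of a difference was 0.32 at the median, and the next gene had an adjusted p of 0.358. Across genes the effects at 2 h and 5 h, which share no liver, had a Pearson correlation of 0.43. Genes are not independent replicates, and this is a description. The 2 effects do share slides. On every slide the 75th percentile signal was lower in the treated liver than in its control at both times. At 2 h it ran from 253 to 295 with cells and from 327 to 358 without, and at 5 h from 212 to 309 and from 284 to 333. Its part in the correlation was not tested. Both effects were above 0 in 6453 genes and below 0 in 3182, while 33.8% of genes had effects of opposite sign. Of these, 2301 had only the early effect below 0 and 2624 only the late effect. Without mice 10 and 13, chosen because they stand apart, 73 genes passed, 64 positive and 9 negative, Gimap5 and Tnfrsf23 among them (0.501% of the genes). Leaving out mouse 13 alone gave 22 genes (0.151%), leaving out mouse 4 gave 1, Tnfrsf23, and leaving out any 1 of the other 10 livers gave 0.

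**Figure D1:**
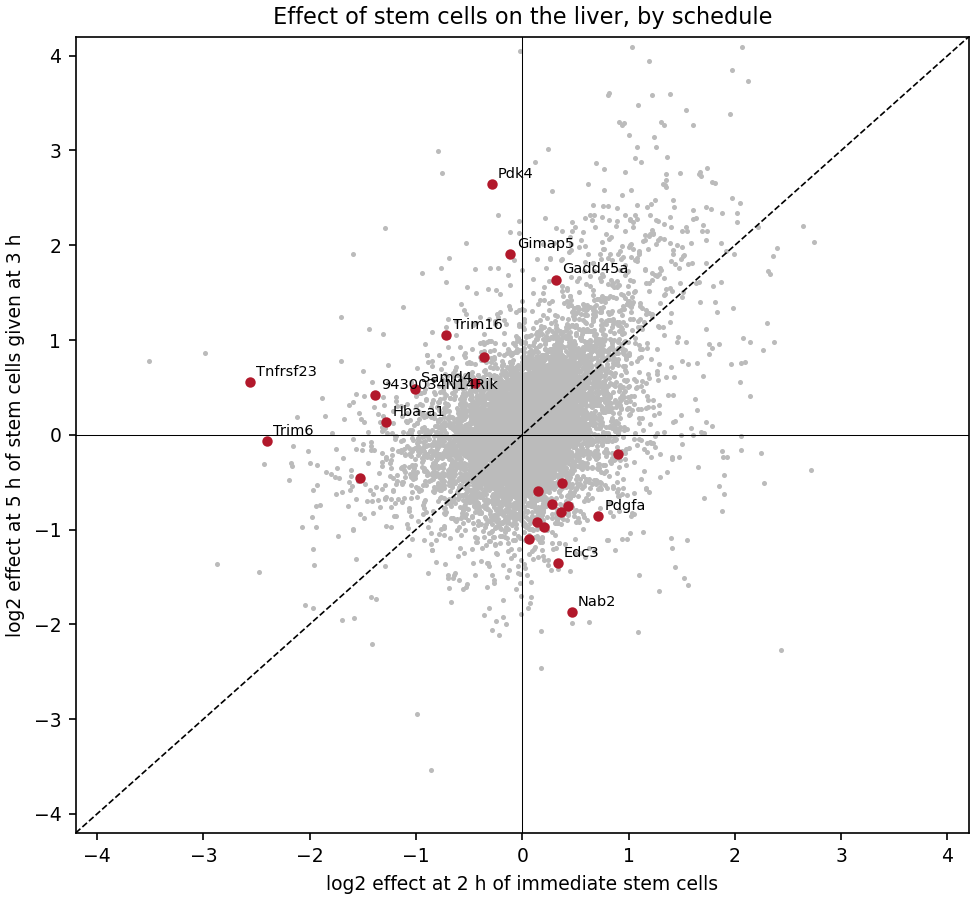
Log2 effect of the stem cells on each of 14560 genes at 2 h (horizontal axis) and at 5 h (vertical axis), with equal effects on the dashed line. Red points are the 24 genes described first, of which those farthest from the dashed line carry names; Gimap5, Pdk4 and Gadd45a lie high at 5 h and near 0 at 2 h, whereas Tnfrsf23 and Trim6 lie low at 2 h.

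Gimap5 encodes a small GTPase of lymphocytes that T cells need for survival and quiescence. On its brightest probe, at chr6:48676977-48677036 of build mm8, the 5 h livers with cells stood at 1.70, 1.48 and 1.41, and the 5 h livers without cells at -0.42, -0.37 and -0.33. At 2 h the levels were -0.17, -0.09 and 0.19 with cells and -0.002, -0.14 and 0.40 without. The 3 late treated livers were thus far above the other 9, and at 2 h the groups overlapped. Groups did not overlap in 8.19% of all genes at 2 h and in 22.2% at 5 h. Gimap5 rose 3.74-fold at 5 h (log2 1.90, adjusted p 0.00488 by limma), the effect at 2 h was -0.11, and the difference was 2.01 ± 0.23 (SE, 3 livers in each group, adjusted p 0.0371 by limma). Within the 3 slides it was 2.15, 1.59 and 2.30, and with slide as a block the adjusted p was 0.223.

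A second Gimap5 probe of nearly the same mean signal, at chr6:48683088-48683147, did not show the late increase. There the 5 h livers with cells lay at 0.67, 0.91 and 0.66, among the 5 h livers without cells at 0.41, 1.02 and 0.95. Mice 13 and 10 were lowest, at -1.24 and -1.79. The difference on this probe was 0.96 ± 0.86 (SE), and the mean of both probes gave 1.49 with an adjusted p of 0.850 by limma. The gene call therefore rests on 1 of 2 probes. The 5 other measured genes of the Gimap family, which lie in 1 cluster, had differences from -0.47 to 0.14, such as -0.47 ± 0.41 for Gimap1 and 0.14 ± 0.24 for Gimap4, and none passed. T cell markers were split, with 6 of 15 positive and a median of -0.03 against 0.02 over all genes, which ran from -0.19 without mouse 10 to 0.08 without mouse 9. Their score ran from -0.32 to -0.14 in the 5 h livers without cells and from -0.01 to 0.21 in those with cells, and from -0.23 to 0.09 and -0.02 to 0.27 at 2 h. In whole liver, fewer cells of a type and less RNA per cell cannot be told apart, and the part of T cell number in the Gimap5 result was not tested.

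Tnfrsf23 encodes a decoy receptor that binds the death ligand TRAIL without passing on a death signal. At 2 h its levels were -3.85, -3.59 and -4.21 without cells and -6.51, -6.29 and -6.53 with cells. At 5 h they were -2.59, -3.41 and -3.09 without cells and -2.53, -2.70 and -2.19 with cells. The early treated livers were below all others, and the 5 h groups overlapped. None of the 3 early treated livers was well above background on this probe (chr7:143477914-143477973, mm8), so their level is only a bound, and 2 of the 3 livers without cells were measured. Tnfrsf23 was at least 1.34-fold lower with cells at 2 h (adjusted p 0.00404 by limma on the values as deposited), and the effect at 5 h was 0.56. The fitted difference was 3.12 ± 0.33 (SE, adjusted p 0.0331 by limma) and 2.98, 3.90 and 2.47 within the slides, and with slide as a block the adjusted p was 0.188. With dim values set to the lowest signal detected on their array it was 1.14, and with normexp background correction it turned to -0.14 (adjusted p 0.940 by limma). Tnfrsf22, the neighbouring decoy receptor of similar sequence, was measured in all 12 livers and gave 1.06 ± 0.38, which did not pass. The list of TNF receptors and death ligands had 12 of 21 members positive, Tnfrsf23 included, and a median of 0.08, which was 0.39 without mouse 13 and 0.17, 0.15, 0.15 and 0.12 without mouse 8, 9, 4 or 6.

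**Figure D2:**
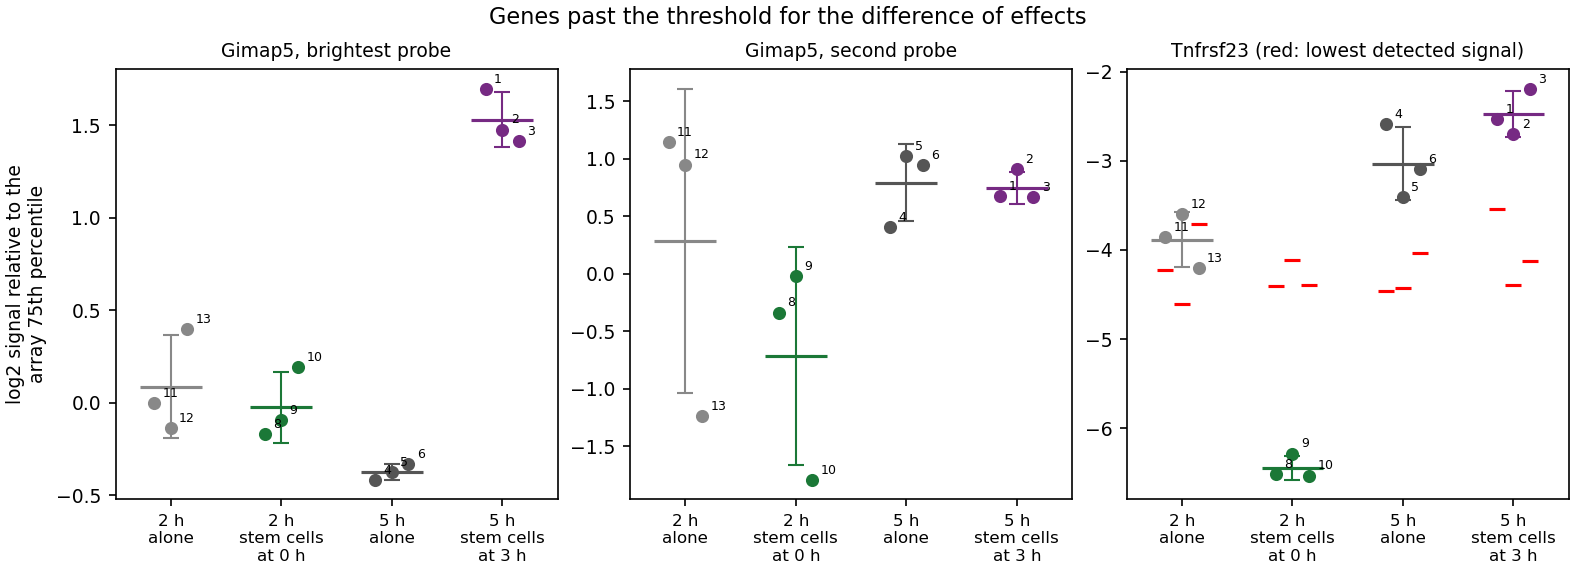
Log2 level relative to the 75th percentile of the array in each liver, numbered by mouse, for both Gimap5 probes and Tnfrsf23; lines and bars are the mean and SD of 3 livers, and red marks in the right panel are the lowest signal well above background on that array. The brightest Gimap5 probe is higher in mice 1, 2 and 3 than in the other 9, the second probe is not, and Tnfrsf23 lies under the red marks in mice 8, 9 and 10.

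Among genes measured in every group, Pdk4 and Gadd45a resembled Gimap5 in that the treated livers stood out at 5 h. Pdk4, a kinase that shuts glucose carbon out of the mitochondrion during fasting, lay at 5.42, 5.56 and 4.18 in the late treated livers. The 5 h livers without cells were at 2.84, 1.90 and 2.50, and all 2 h livers between 2.03 and 3.46. The late groups did not overlap and the early groups did, and the difference was 2.93 ± 0.63 (SE, adjusted p 0.479 by limma). Gadd45a, a growth arrest gene switched on by DNA damage and other stress, rose at 5 h with a log2 effect of 1.64 (adjusted p 0.0199 by limma, where 0.0343% of genes passed). Its late levels were 4.35, 4.33 and 4.77 with cells against 2.83, 2.94 and 2.78 without, and the early effect was 0.32. The difference for Gadd45a, 1.32 ± 0.27, did not pass with all livers (adjusted p 0.411 by limma) and passed without mouse 13, at 1.51 (adjusted p 0.0496).

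Genes of fatty acid oxidation under PPAR alpha, the nuclear receptor of the fasting liver, were mostly positive, and none passed singly. Of 23 measured, 21 were positive (53.1% of all genes were), with a median of 0.36 against 0.02 over all genes. Pdk4 is 1 of the 23 and the only one at an unadjusted p under 0.05, a level that 4.67% of all genes reached. Of the 22 others 20 were positive, with a median of 0.36. Within the slides the median was 0.20, 0.83 and 0.04, and it was 0.70 after normexp. The late effect was above 0 in 21 members and the early effect below 0 in 15. The median late effect was 0.25 and the median early effect -0.11, against 0.08 for each over all genes. Cpt1a, which admits fatty acids to the mitochondrion, had a difference of 0.55 ± 0.26, the thioesterase Acot2 1.14 ± 0.61, and the peroxisomal enzyme Ehhadh 0.44 ± 0.23.

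Some red cell genes stood low in the livers of the early schedule with cells. Of the erythroid and haem genes, 11 had an early effect below 0 and 7 above 0. Their median early effect was -0.31, against 0.08 over all genes. The haemoglobin alpha gene Hba-a1 lay at 6.42, 6.04 and 6.48 in the early treated livers, and at 7.82, 7.29 and 7.68 in their controls. At 5 h it was 7.76, 8.10 and 7.83 with cells and 7.90, 7.78 and 7.61 without. The early groups did not overlap, the late ones did, and the difference was 1.41 ± 0.26 (SE, adjusted p 0.358 by limma). Of 18 measured erythroid and haem genes 13 were positive, 7 of them at an unadjusted p under 0.05 (2.26% of all genes were positive at this level), and 0 were negative at it. The median was 0.43, and 0.38, 0.72 and 0.91 within the slides. After normexp it was 0.23. Alas2, the first enzyme of haem synthesis in red cells, gave 0.98 ± 0.28, and Bpgm, which makes the regulator of oxygen release, 0.66 ± 0.17. The erythroid score ran from -0.49 to -0.31 in the early treated livers and from -0.19 to 0.28 in the other 3 groups, and blood content and perfusion of the livers were not tested.

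None of the other positive genes of smallest p passed the threshold for the difference. Dph7, of diphthamide synthesis, Trim16, a ubiquitin ligase, and Sin3a, the scaffold of a histone deacetylase complex, were lower than controls in every early treated liver and higher in every late one. Dph7 stood at -1.20, -0.93 and -0.83 with cells and -0.70, -0.39 and -0.78 without at 2 h, and at 0.71, 0.56 and 0.68 against -0.12, -0.33 and -0.05 at 5 h. Its difference was 1.18 ± 0.22 (SE, adjusted p 0.358 by limma). Trim16 gave 1.77 ± 0.34 and Sin3a 0.99 ± 0.20. Such groups, apart in opposite directions at both times, were found for 57 genes (0.392%), 40 of them lower early and higher late. Trim6, a ubiquitin ligase that strengthens interferon signals, was lower at 2 h with a log2 effect of -2.40 (adjusted p 0.0322 by limma, where 0.0275% of genes passed) and a difference of 2.33 ± 0.42, but 1 of its 4 kept probes had the opposite sign. Samd4, an RNA-binding repressor, gave 1.5 ± 0.29, with a second probe at 0.61, and the RIKEN transcripts 9430034N14Rik and D330040H18Rik gave 1.81 ± 0.37 and 1.08 ± 0.22.

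Among genes measured in every group, the negative difference of smallest p was that of Edc3, an activator of mRNA decapping. With cells it lay at -2.73, -2.66 and -2.81 at 2 h and at -4.24, -3.38 and -3.85 at 5 h. Without cells it lay at -3.0, -3.16 and -3.05 at 2 h and at -2.22, -2.42 and -2.78 at 5 h. Treated livers were all higher than controls early and all lower late, and the difference was -1.69 ± 0.30 (SE, adjusted p 0.358 by limma). Pdgfa, the ligand that recruits mesenchymal cells, had the same form. Its levels were 2.49, 2.45 and 2.24 against 1.26, 1.95 and 1.83 early, and 1.26, 0.99 and 0.97 against 2.56, 1.75 and 1.48 late, a difference of -1.57 ± 0.39 with a second probe at -1.99. Nab2, a corepressor of the early growth response factors, was low in the late treated livers at -3.49, -3.56 and -3.11, where the other 9 ran from -2.13 to -0.82, and its difference was -2.34 ± 0.50.

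The other 9 genes of this group differed in how far their probes agree. The zinc finger gene Zfp276 gave -1.18 ± 0.23, and its second probe was at -0.04 ± 0.72. Zfp654 gave -1.18 ± 0.21 with a second probe at -0.56, and Zfp668 -1.16 ± 0.30 with a second probe at -0.64. Zfp954 (-0.88 ± 0.16) and Zfp597 (-1.11 ± 0.23) had 1 probe each. Zfp954 was higher than controls in every early treated liver and lower in every late one. Phf23, a chromatin reader, gave -1.18 ± 0.27, Ostc, a subunit of the enzyme that attaches sugar chains to new proteins, -0.74 ± 0.18, and the phosphatase relative Mtmr11 -1.01 ± 0.25. Fem1b, an adaptor of a ubiquitin ligase, gave -1.06 ± 0.26, and its second probe was at 0.29. The adjusted p of the 12 negative genes ran from 0.358 to 0.756 by limma.

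**Figure D3:**
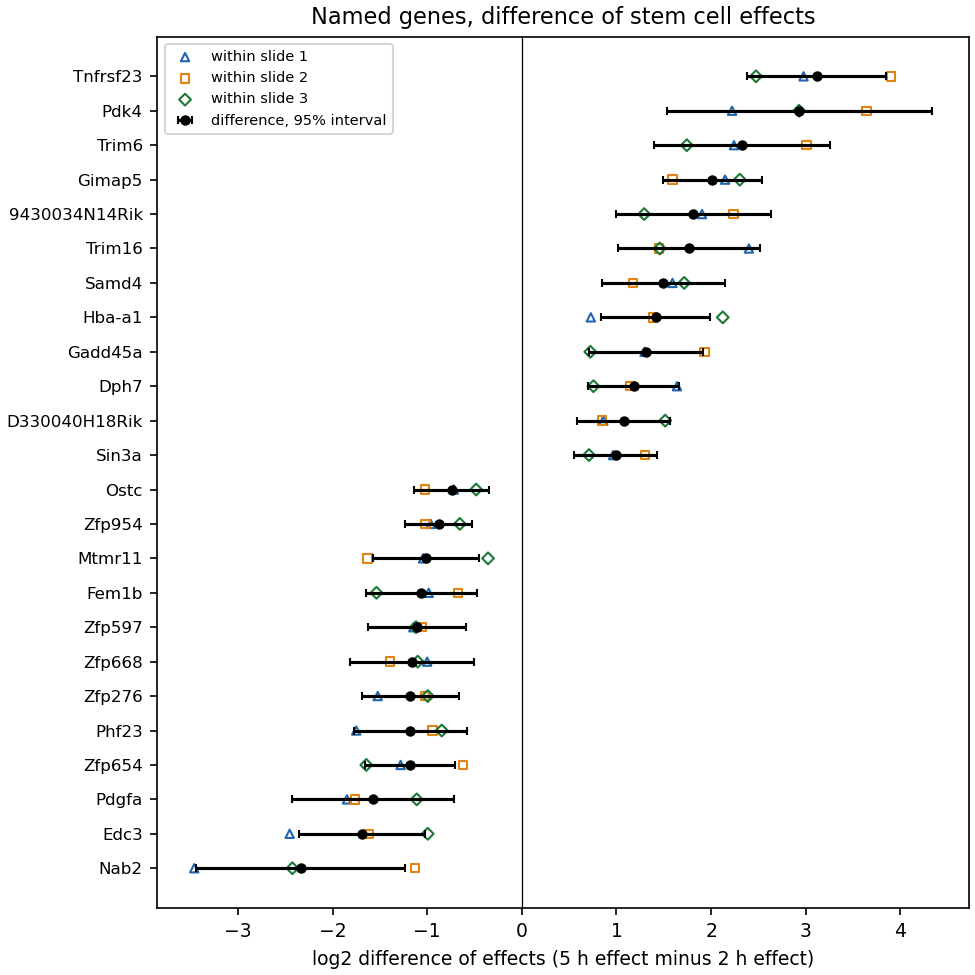
Log2 difference of effects (5 h effect minus 2 h effect) for the 12 positive and 12 negative genes described first; black points and bars are the estimate and its 95% interval from limma, and open symbols are the differences within the 3 slides. All 24 keep 1 sign within the 3 slides, as do 10% of all genes on the positive and 9.86% on the negative side; the genes were chosen by their p.

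Where a group was not well above background on any of its arrays, only bounds can be given. Reg3g, a secreted antibacterial lectin of the acute phase, was above background in the 3 late livers without cells and in none of the other 9, at -3.27, -3.45 and -3.29, and was at least 1.61-fold lower with cells (adjusted p 0.0199 for the effect at 5 h, limma). Both 2 h groups lay below background, so no early effect was measured, and the fitted difference of -1.89 became -0.56 with dim values at the lowest detected signal. Il10, the cytokine that restrains macrophages, was above background in mice 8, 9 and 10 at -3.12, -2.81 and -2.24 and in 0 of 3 early controls, at least 2.64-fold higher with cells (adjusted p 0.138, limma). Its levels at 5 h were -4.56, -3.77 and -3.89 with cells and -3.89, -4.38 and -4.18 without, which overlap. The difference for Il10 was -1.51 ± 0.37, or -1.03 with dim values raised. The chemokine receptor gene Cxcr4 had the same form, at least 1.60-fold higher with cells at 2 h, and a difference of -1.67 ± 0.44, or -0.93.

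Spring1, which the maturation of the sterol regulator SREBP requires, had the most negative difference among these genes, -4.71 ± 0.93. It lay at -2.48, -3.29 and -0.95 in the early treated livers and -5.46, -4.55 and -4.00 in their controls, of which 1 of 3 was measured. Late, it was at least 1.63-fold lower with cells, and the difference was -2.62 with dim values raised. Cbx8, of the Polycomb complex, was at least 2.49-fold lower with cells at 5 h, and its difference was -2.60 ± 0.60, or -1.95 with dim values raised. The transcript 9130004C02Rik was at least 1.21-fold lower with cells at 5 h (adjusted p 0.0199, limma), with a difference of -1.72 ± 0.32 that shrank to -0.16. On the positive side, P2ry10, a receptor of lymphocytes, was at least 1.92-fold higher with cells at 5 h (difference 1.07 ± 0.30). The early treated livers were the group below background for Lrrc18 and for the kinase gene Rps6ka2. Lrrc18 was at least 1.22-fold lower there, and its fitted difference of 1.90 ± 0.37 was 0.78 with dim values raised. Rps6ka2 was at least 1.53-fold lower, and its fitted difference of 1.85 ± 0.45 was 0.60. Capn6 was below background in both 5 h groups, and its fitted difference of 1.67 ± 0.45 was 0.84 with dim values raised.

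The unfolded protein response is the set of chaperones and signals that cells raise when proteins fold badly in the endoplasmic reticulum. Its ATF6 branch acts on promoters through the ER stress response element, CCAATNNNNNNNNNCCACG, searched here on both strands of the 250 bases before the start of each gene. The element was found in 7 of 22 genes of the list with a promoter sequence (31.8%) and in 35 of 27025 genes in all (0.13%). It is shown in capitals for 3 genes described next, in RefSeq sequence of build GRCm38.p6 written along the strand of the gene. In Creld2 and at the second site of Hsp90b1 the capitals read the element on the opposite strand. A match is a description of the letters and not of binding.
Creld2, chr15:88819396-88819645, plus strand: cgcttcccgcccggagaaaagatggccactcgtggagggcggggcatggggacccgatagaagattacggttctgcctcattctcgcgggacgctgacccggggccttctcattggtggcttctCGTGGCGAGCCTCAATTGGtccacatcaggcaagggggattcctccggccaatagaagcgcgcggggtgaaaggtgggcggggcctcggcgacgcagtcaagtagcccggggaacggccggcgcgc
Pdia6, chr12:17266339-17266588, plus strand: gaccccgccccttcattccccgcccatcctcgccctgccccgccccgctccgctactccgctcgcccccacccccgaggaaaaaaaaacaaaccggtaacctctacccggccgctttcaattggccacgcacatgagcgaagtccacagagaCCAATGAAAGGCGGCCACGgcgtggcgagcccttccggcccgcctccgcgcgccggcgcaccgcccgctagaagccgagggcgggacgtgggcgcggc
Hsp90b1, chr10:86705445-86705694, minus strand: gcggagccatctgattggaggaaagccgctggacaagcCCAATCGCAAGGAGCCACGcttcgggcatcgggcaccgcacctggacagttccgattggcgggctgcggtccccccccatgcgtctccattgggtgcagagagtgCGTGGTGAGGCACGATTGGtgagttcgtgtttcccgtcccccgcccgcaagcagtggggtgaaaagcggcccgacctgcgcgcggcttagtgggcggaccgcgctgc

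In this list 21 of 25 measured genes had a negative difference, 5 of them at an unadjusted p under 0.05 (2.41% of all genes were negative at this level). None was positive at that level and none passed the threshold. The median was -0.62, against 0.02 over all genes, and -0.77, -0.26 and -0.75 within the slides. It kept its sign in all 25 alternatives and was smallest after normexp, at -0.25. The list score was 0.49, 0.48 and 0.34 in the late livers without cells and -0.19, -0.16 and -0.04 in those with cells. At 2 h it was -0.18, 0.09 and -0.33 without cells and 0.12, -0.11 and -0.49 with them. The late controls thus stood above the other 9 livers. From 2 h to 5 h the median member differed by 0.52 on the log2 scale without cells and by -0.07 with them.

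Creld2, a chaperone helper that is secreted under ER stress, lay at 6.91, 6.58 and 6.52 in the late controls and at 5.22, 4.88 and 5.05 in the late treated livers. Early levels were 4.50, 5.40 and 4.64 without cells and 5.74, 4.67 and 3.96 with them. The late groups were apart by 1.62 on the log2 scale, the early ones overlapped, and the difference was -1.57 ± 0.56 (SE, adjusted p 0.963 by limma). Sdf2l1, a partner of the chaperone BiP, gave -1.51 ± 0.48, and Ddit3, the transcription factor CHOP of the death-promoting arm, -1.52 ± 0.59. Pdia6, a disulphide isomerase, gave -0.55 ± 0.22, with 1 of 4 kept probes of the opposite sign, and Hsp90b1, the chaperone GRP94, -0.66 ± 0.30. The 7 members with the element all had negative differences, from -1.57 to -0.28 with a median of -0.66. Of the 15 members whose promoter was searched and held no element, 12 were negative with a median of -0.43. The difference between these sets was not tested, and 3 members had no promoter sequence here.

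**Figure D4:**
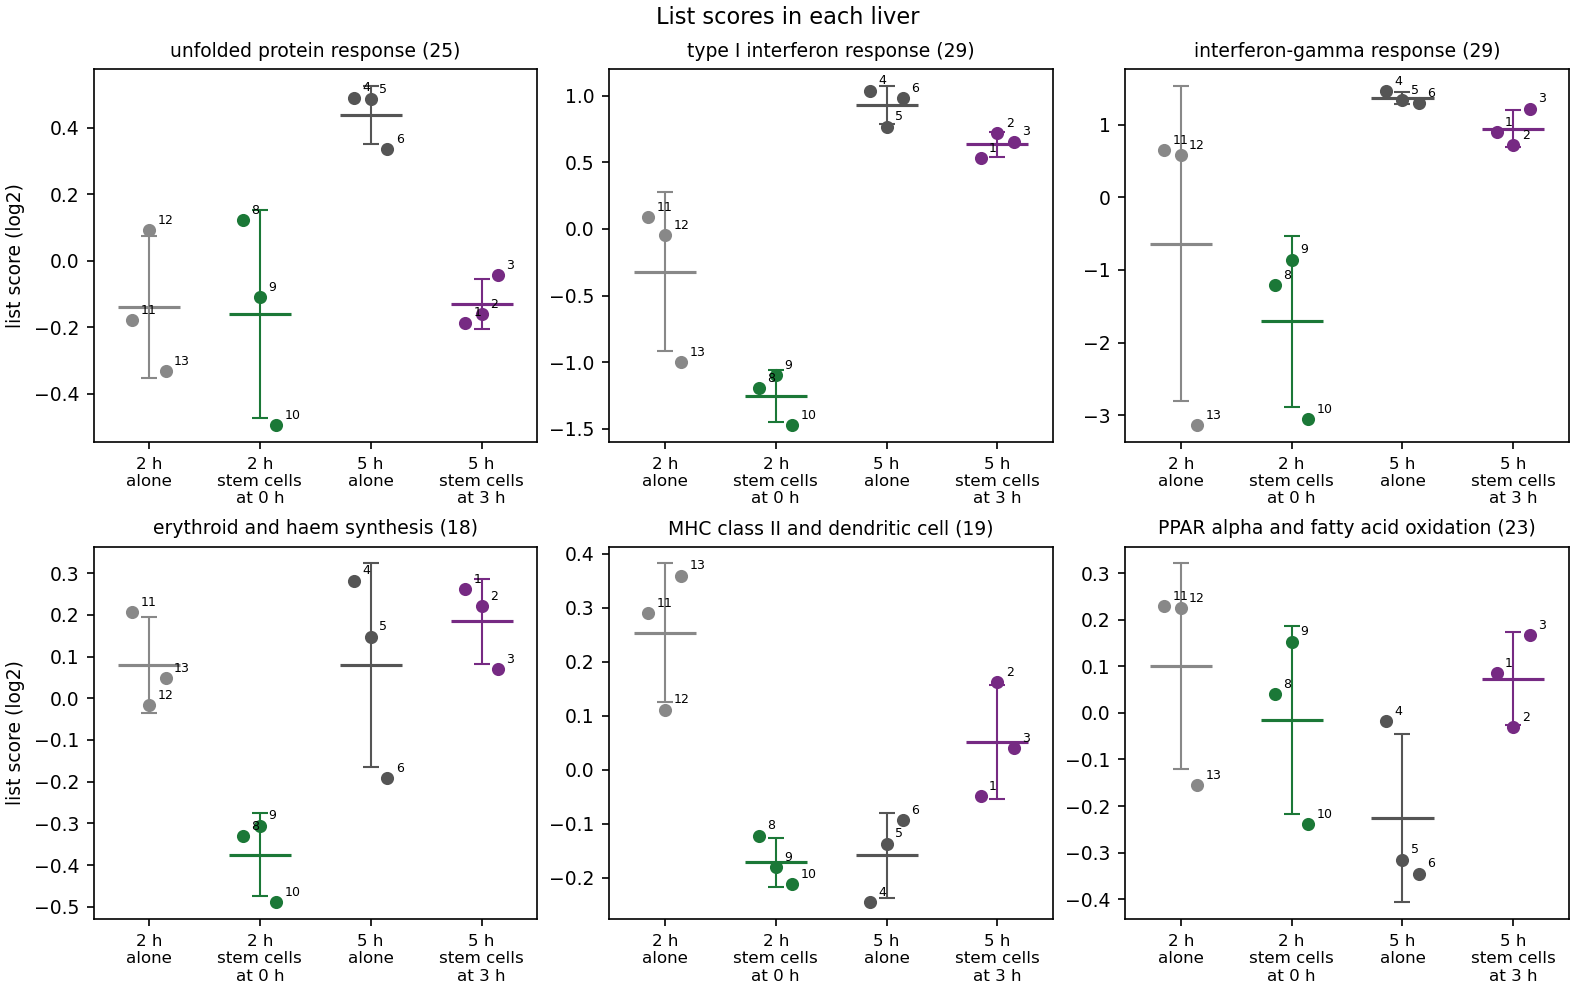
Score of 6 gene lists in each liver, numbered by mouse: the median over the members (number in brackets) of the log2 level minus the mean of the gene over the 12 livers, with the mean and SD of 3 livers. The unfolded protein response is high in mice 4, 5 and 6, the erythroid list is low in mice 8, 9 and 10, and both interferon lists are low in mouse 13 among the early controls, the interferon-gamma list also in mouse 10.

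Antiviral genes of the type I interferon response are switched on through the interferon-stimulated response element, whose paired half-sites GAAANNGAAA were searched on both strands of the same windows. They occurred in 8 of 20 genes of the list with a promoter (40%) and in 936 of 27025 genes in all (3.46%). Ifit1 and Ifit3, neighbouring genes of proteins that bind viral RNA, carry 2 sites each, shown in capitals as the opposite strand of the pair.
Ifit1, chr19:34640639-34640888, plus strand: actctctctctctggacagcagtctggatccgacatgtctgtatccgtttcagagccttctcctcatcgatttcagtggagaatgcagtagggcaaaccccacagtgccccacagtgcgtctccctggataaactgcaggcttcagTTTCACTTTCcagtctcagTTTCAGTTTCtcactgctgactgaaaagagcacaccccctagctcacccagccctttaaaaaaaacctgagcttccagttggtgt
Ifit3, chr19:34583279-34583528, plus strand: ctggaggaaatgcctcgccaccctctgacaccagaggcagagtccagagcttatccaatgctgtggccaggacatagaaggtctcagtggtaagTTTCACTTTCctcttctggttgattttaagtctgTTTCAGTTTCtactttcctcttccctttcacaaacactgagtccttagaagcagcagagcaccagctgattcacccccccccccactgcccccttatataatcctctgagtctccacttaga

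Of 29 measured genes of the list 21 were positive, against 53.1% of all genes. At an unadjusted p under 0.05, 8 were positive (2.26% of all genes were positive at this level) and none was negative. The median was 0.38, and 0.28, 1.34 and -0.07 within the slides. It was 0.76 without mouse 13, and 0.24 and 0.16 without mouse 11 or 12. Members with the paired half-sites were positive in 6 of 8 cases with a median of 0.25. The 12 searched members without them were positive in 9 cases with a median of 0.61, and 9 members had no promoter sequence here. The early effect was below 0 in 28 of 29 members and the late effect in 18. The median early effect was -0.77 and the median late effect -0.20, against 0.08 for each over all genes.

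Ifit2 lay at -2.03, -1.90 and -1.61 in the early treated livers against 1.18, 0.10 and -1.17 in their controls, and at 2.60, 3.12 and 3.19 against 2.78, 2.47 and 2.48 at 5 h. Mouse 13 was the lowest early control, and the groups were apart at 2 h and overlapped at 5 h. The difference was 2.28 ± 0.65 (SE, adjusted p 0.800 by limma) and passed without mouse 13, at 2.88 (adjusted p 0.0448). Ifit1 gave 1.94 ± 0.85 and Ifit3 1.31 ± 0.49. Mx1, a GTPase against influenza viruses, was not well above background in any early treated liver and was at least 1.76-fold lower there. Late, Mx1 lay at -1.57, -1.02 and -1.16 with cells and -2.17, -1.77 and -2.12 without. The difference for Mx1 was 2.48 ± 0.62 (SE, adjusted p 0.756 by limma), or 1.93 with dim values raised, and it passed without mouse 13, at 3.10 (adjusted p 0.00926). It depended on the processing: the lowest value among the alternatives was 0.17, whereas with 1 liver left out the lowest was 2.08. Trim25, the ligase that arms the RNA sensor RIG-I, gave 0.68 ± 0.19, lower than controls in every early and higher in every late treated liver.

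Interferon-gamma response genes, mainly guanylate-binding proteins and immunity-related GTPases, had 25 of 29 members positive, against 53.1% of all genes, but no stable size. The median was 0.69, and 1.30, 3.33 and -2.24 within the slides, where slide 2 holds mouse 10 and slide 3 holds mouse 13. Without mouse 13 it was 2.08, without mouse 9 it was 1.19, and without mouse 10, 11 or 12 it was 0.07, 0.14 and 0.19. Of the 73 genes that passed without mice 10 and 13, 7 were on this list (24.1% of its members) and 5 on the type I list (17.2%), against 0.501% of all genes. The pair was left out because of its low interferon-gamma scores, so these shares are not independent of that choice. Among cytokines the errors were wide. Ifng gave 0.71 ± 1.15, Tnf -0.82 ± 1.27, Il6 -0.90 ± 1.88 (-0.47 with dim values raised), and Cxcl10, the chemokine that calls in activated T cells, 0.41 ± 2.65. Cxcl10 lay at 2.22 in mouse 13 and 3.75 in mouse 10, and between 8.69 and 9.96 in the other 10 livers. Its 95% interval, -5.47 to 6.28, allows large differences of either sign.

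The MHC class II genes H2-Ab1 and H2-Eb1, whose products present antigen to helper T cells, were lower than controls in every early treated liver and higher in every late one. H2-Ab1 lay at 3.62, 3.43 and 3.40 with cells and 4.13, 3.73 and 4.27 without at 2 h, and at 3.55, 3.74 and 3.53 against 3.37, 3.37 and 3.24 at 5 h. The groups were apart at both times in opposite directions, and the difference was 0.84 ± 0.22 (SE, adjusted p 0.756 by limma), with all 4 kept probes positive. H2-Eb1 had the same form with 0.81 ± 0.26. The invariant chain Cd74 gave 0.65 ± 0.23, and H2-DMb1, which loads peptides, 0.72 ± 0.29. In the whole list with dendritic cell genes 17 of 19 were positive, with a median of 0.49, and 0.31, 0.79 and 0.54 within the slides. The median was 0.33 without mouse 10 and vanished after normexp, at -0.02.

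Macrophage and endothelial genes were also mostly positive, where 53.1% of all genes were. Of Kupffer cell and macrophage markers 18 of 19 were positive, with a median of 0.41, or 0.23 without mouse 4, and within slide 2 it was -0.14. The scavenger receptor gene Marco gave 1.23 ± 0.47, Timd4, a receptor for dying cells, 0.61 ± 0.25, and Csf1r, the growth factor receptor of macrophages, 0.47 ± 0.24. Endothelial markers were positive in 21 of 24 cases with a median of 0.43, which was 0.26 without mouse 13 and 0.67 without mouse 5, and 0.004 within slide 2. Robo4, a receptor that steadies vessels, gave 0.77 ± 0.25 and was lower than controls in every early and higher in every late treated liver. Lyve1, of sinusoidal and lymphatic endothelium, gave 1.12 ± 0.39, and Cd34 gave 0.85 ± 0.38. None of these genes passed the threshold.

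Mesenchymal genes matter here because the injected cells carry them, although stellate cells of the liver do too. Postn, a matrix protein of wounds, lay at -0.50, -0.45 and -0.43 in the early treated livers, below their controls at 0.50, 0.29 and 0.24. Late, it lay at 0.42, 0.79 and 0.66 with cells and 0.71, 0.64 and 0.53 without. The early groups did not overlap, and the difference was 0.79 ± 0.19 (SE, adjusted p 0.727 by limma). The collagen genes Col1a1, Col1a2 and Col3a1 gave 1.13 ± 0.43, 0.69 ± 0.30 and 0.72 ± 0.31. In all, 15 of 21 mesenchymal genes were positive with a median of 0.28, which was 0.17 without mouse 12.

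Glucose and glycogen genes were negative in 12 of 18 cases, where 53.1% of all genes were positive. Klf15, a fasting factor that drives gluconeogenesis, lay at 3.86, 3.61 and 4.83 in the early treated livers and at 1.49, 1.70 and 4.43 in their controls. Late, Klf15 was at -0.27, -0.03 and -0.39 with cells and 1.75, 0.71 and 1.61 without. Mouse 13 was the high early control, and the late groups did not overlap. The difference was -3.15 ± 0.96 (SE, adjusted p 0.812 by limma), and it passed without mouse 13, at -4.09 (adjusted p 0.0293). G6pc, the enzyme that releases free glucose, gave -2.43 ± 0.95, and Foxo1, the factor that insulin holds back, -0.76 ± 0.34. Mouse 13 was also the high early control for G6pc, at 6.12 against 3.41 and 3.28. The median of the list, -0.28, was -0.06 without mouse 13, -0.07 without mouse 8 and -0.15 without mouse 3 or mouse 4. It was -0.50 without mouse 11, -0.03 after normexp, and -0.10, 0.05 and -0.51 within the slides.

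Clock genes were split evenly, 9 of 18 positive with a median of -0.06, which ran from -0.45 without mouse 13 to 0.06 without mouse 12. Nfil3, a repressor that the clock and cytokines control, gave 1.13 ± 0.33 and was lower than controls in every early and higher in every late treated liver. Nr1d2, a nuclear receptor of the clock, gave -0.87 ± 0.26, Per1, of its negative limb, -2.09 ± 0.69, and Npas2, a partner of Bmal1, 0.77 ± 0.33, with neither 2 h group above background. Immediate early genes were negative in 17 of 23 cases, with a median of -0.39. That median was -0.06 without mouse 13, -0.02 without mouse 8 and -0.20 without mouse 9, and it was -0.65 and -0.70 without mouse 11 or 10. Within the slides it was -1.07, 0.96 and -0.74. Egr3, a growth response factor, gave -1.82 ± 0.55, the nuclear receptor gene Nr4a1 -1.45 ± 0.49, and Klf2, which answers to blood flow, -0.45 ± 0.25. Egr3 was not above background in the late treated livers, and its difference was -0.51 with dim values raised.

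The inducible heat shock genes Hspa1a and Hspa1b had large late effects and slide values of either sign. Hspa1a lay at 4.63, 2.01 and 2.82 in the late controls and at -1.11, -1.09 and 1.03 in the late treated livers. Early, it was -0.13, -0.87 and -2.47 without cells and -1.48, -2.0 and -2.56 with them. The late groups were apart and the early ones overlapped. The difference was -2.68 ± 1.15 (SE, adjusted p 1 by limma), and -5.12, 1.46 and -4.38 within the slides. Hspa1b gave -1.96 ± 0.95, and the sequences of the pair are near-identical, so a probe may read both. Over 24 cytosolic chaperones the median was -0.07, and it turned to 0.02 without mouse 13 or without mouse 9 and to 0.22 after normexp.

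**Figure D5:**
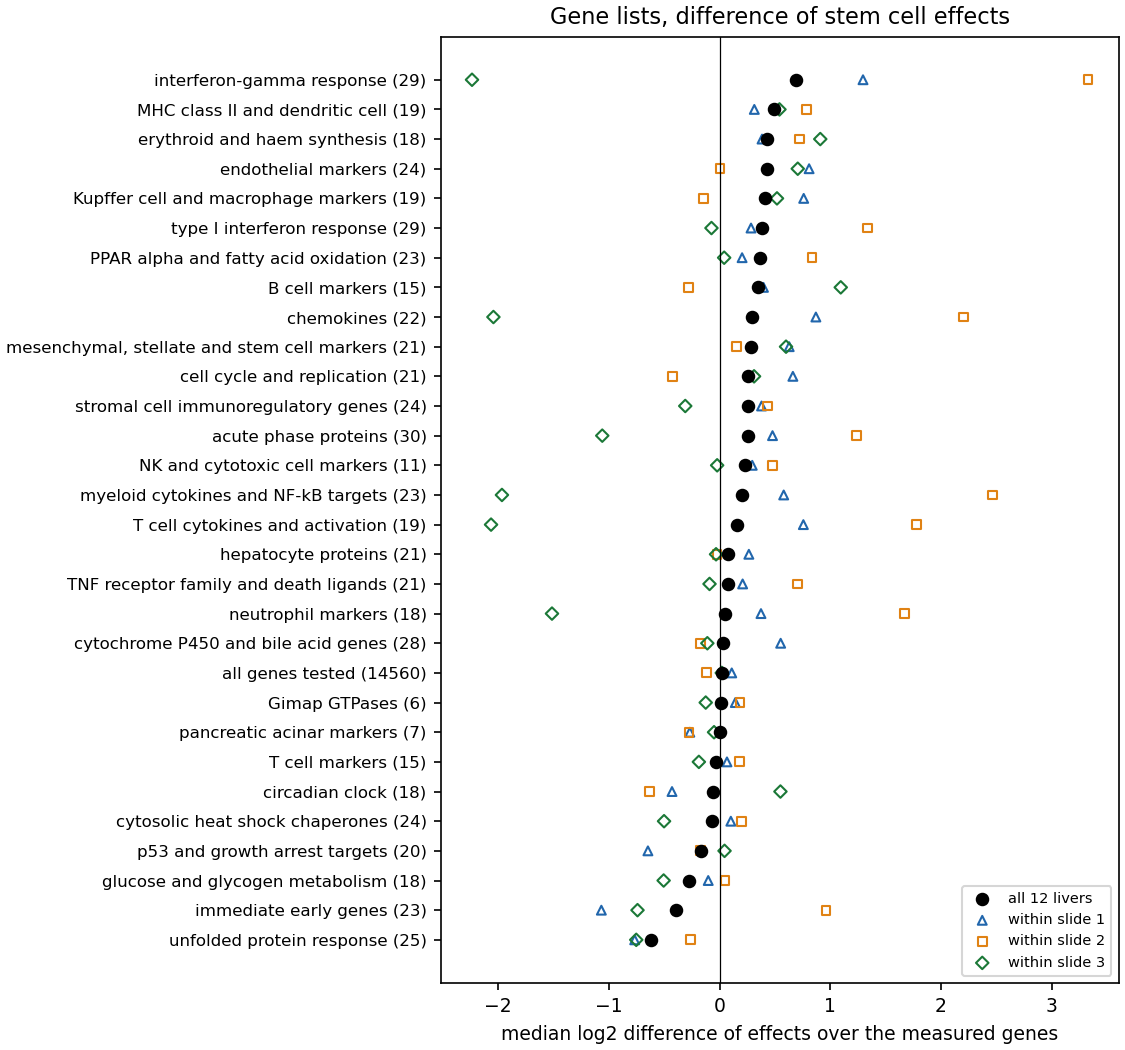
Median log2 difference of effects over the measured genes of 29 lists and over all genes (number of genes in brackets); black points use all 12 livers and open symbols the livers of 1 slide. The unfolded protein response lies lowest, at -0.62, and the lists that hold interferon-gamma, chemokine and cytokine genes spread widest between slides 2 and 3, which hold mice 10 and 13.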

How the data were processed

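The authors deposited 1 scanner file per liver with spot intensity, not on a log scale, from Agilent Feature Extraction 10.5.1.1 (file headers, submitters' notes). The headers record background subtraction, detrending, surrogates for dim spots and probe positions on mm8. The series value table held the same intensity (largest difference 0 on the 12 arrays).

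Here log2 intensity minus the 75th percentile of each array was taken after control spots (1639 of 45018) were left out and outlier spots (55 to 100 per array) set to missing. The 75th percentile ran from 212 to 358, and 0 spots were saturated. A probe was kept when well above background on at least 3 of 12 livers (25205 probes). Of 41174 probes, 23374 were named by accession, 6733 by current and 2919 by older symbols through the RefSeq gene table, 1660 kept the name of the design, and 6488 had no symbol. The brightest kept probe stood for a gene (14560 genes).

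One limma 3.58.1 fit (R 4.3.3, lmFit and eBayes, 2-sided) of 4 group means gave the difference, with Benjamini-Hochberg adjustment over 14560 genes, and 15 genes were fitted with a missing value. Errors after ± are standard errors of that fit. The fit was tested on simulated data. The labels number the mice but do not say more of their independence, and p-values measure the spread between these livers.

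Genes named were those past the threshold, the 12 of smallest p in each direction measured in at least 2 of 3 arrays of every group, the 6 of smallest p in each direction with a group below background, and leading or preset members of 29 lists, less some of the latter; 2 genes these rules name are not reported here. Ifit1, Ifit3 and Hsp90b1 were added for their promoters. Bounds set the brighter group against the dimmer group's mean of, per array, the higher of the signal and the lowest signal well above background. Members and lists were chosen with earlier results of these data known. Alternatives changed scaling, background, filter, probe choice, flags, slide, weights, prior and livers. The other 4 samples, of inflammatory cells, were not used here.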

Additional observations from a re-analysis of the deposited data

Results flagged for a closer look

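The effect of the cells differed between the schedules by the test of the difference itself in Gimap5 (2.01, log2) and Tnfrsf23 (3.12), both past the threshold in limma and neither with slide as a block. In 15 other genes described above every treated liver lay on one side of its controls early and on the other side late, and the difference did not pass the threshold. They are not the 15 of smallest p among all genes of this form. Lower early and higher late were Dph7 (1.18), Trim16 (1.77), Sin3a (0.99), Mx1 (2.48), Capn6 (1.67), Bpgm (0.66), H2-Ab1 (0.84), H2-Eb1 (0.81), Trim25 (0.68), Robo4 (0.77) and Nfil3 (1.13). Higher early and lower late were Edc3 (-1.69), Zfp954 (-0.88), Pdgfa (-1.57) and Spring1 (-4.71). The values of Tnfrsf23, Mx1, Capn6 and Spring1 include groups below background. For Capn6 both 5 h groups were, so its late effect was not measured. The difference for Capn6 was 0.84 with dim values raised and -0.19 after normexp. That of Tnfrsf23 was 1.14 with dim values raised and -0.14 after normexp, and that of Gimap5 was 1.49 over both its probes (adjusted p 0.850, limma). Among all genes 57 (0.392%) had this form, and groups of 3 were not screened for outlying livers.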

How the results depend on the processing

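The count of 2 genes stayed at 2 with outlier spots kept and with the authors' series value table. It was 3 with quantile normalization (Reg3g added) and 3 with array weights (Mx1 added). It was 1 with probes above background on all 12 livers (Gimap5), 1 with the mean over probes (Tnfrsf23) and 1 with an intensity trend and robust prior (Gimap5). It was 0 with the array median, with normexp, without the filter on dim probes, with slide as a block, and with array position 4 against 3 as a covariate, which was chosen after seeing the data. Leaving out 1 liver gave 0 to 22, and leaving out mice 10 and 13 together gave 73. With slide as a block the adjusted p of Gimap5 and Tnfrsf23 was 0.223 and 0.188, at the same estimates. The mouse numbers of the labels are not shared between groups, so livers were matched by slide alone.

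Of 79 genes refitted (those described, less the 3 added for their promoters), 67 kept 1 sign in every alternative. A kept sign was not always a kept size. The lowest value among the alternatives was 0.11 for 9430034N14Rik, 0.23 for Trim16, 0.36 for Samd4 and 0.17 for Mx1. With 1 liver left out, their lowest values were 1.59, 1.61, 1.34 and 2.08. Normexp started from the mean spot signal and its background signal in place of the processed signal, and added an offset that shrinks dim signals. It turned Tnfrsf23 to -0.14, D330040H18Rik to -0.16, Lrrc18 to -0.34 and Rps6ka2 to -0.45. It also turned Capn6 to -0.19, P2ry10 to -0.12, Gimap4 to -0.35 and Npas2 to -0.53. Single livers turned the cytokines: Ifng was -0.14 without mouse 11, Tnf 0.36 without mouse 13, Il6 1.04 without mouse 13 and 0.39 without mice 10 and 13, and Cxcl10 -0.79, -0.85 and -1.30 without mouse 11, 12 or 10. With 1 liver left out, Ifng ran from -0.14 to 1.78, Tnf from -1.58 to 0.36, Il6 from -2.08 to 1.04 and Cxcl10 from -1.30 to 2.86. The causes were not tested. The smaller of the passing ratios of difference to standard error was 8.61, which at the median standard error of 0.32 is a difference of 2.75, so with 3 livers in a group smaller differences could pass only at a smaller error.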

Other observations

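Cell cycle and replication genes were positive in 18 of 21 cases (53.1% of all genes were), with a median difference of 0.26. That median was 0.06 without mouse 13, 0.15 without mouse 10 or mouse 6, 0.46 without mouse 11 and 0.47 without mouse 9, and it was -0.42 within slide 2. Acute phase proteins, the plasma proteins that the liver secretes in inflammation, were positive in 26 of 30 cases with a median of 0.25. Without mouse 12 or mouse 10 that median was -0.10 and -0.13, without mouse 11 or mouse 5 it was 0.02 and 0.17, and without mouse 13 it was 0.65. Within the slides it was 0.48, 1.24 and -1.06. B cell markers were positive in 12 of 15 cases with a median of 0.35, which was -0.03 without mouse 13 and 0.59 without mouse 11. The B cell median was -0.28 within slide 2 and -0.08 after normexp. None of these 66 genes passed the threshold, and 1, the replication gene Mcm4 (1.21, named after its value was seen), stood at an unadjusted p under 0.05. The other 10 lists had medians from -0.16 to 0.29.

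The change from 2 h to 5 h passed the threshold in 2282 genes without cells (15.7%) and 2710 with cells (18.6%). Across genes the 2 changes, which share no liver, had a Pearson correlation of 0.79 and a slope of 0.86, as a description. Gimap5 differed between the times by 1.55 on the log2 scale with cells and by -0.46 without. Tnfrsf23 was below background in the early treated livers, and with dim values raised it differed by 1.83 with cells.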
